A study of Drosophila melanogaster with 10 samples.

Results

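Wing imaginal discs of Drosophila larvae in the third instar, in which Nelf-A was depleted by RNAi (ap > NelfAi), were compared with control discs (ap > GFP), with no Yki transgene in either genotype. The comparison rests on 4 of the 10 libraries of the series, 2 of each genotype, chosen by their labels, and covers 7858 of the 7987 genes listed. Both genotypes carry apterous-Gal4, which drives transgenes in the dorsal compartment, UAS GFP and a temperature-sensitive Gal80, and the depleted discs carry UAS NelfA RNAi, a construct of the Vienna KK collection, in addition. Control crosses had 2 copies of the GFP transgene and all others 1 copy, and discs were pooled 4 to 5 days after the transgenes were induced. The other 6 libraries, 3 of ap > Yki+NelfAi and 3 of ap > Yki, test the same RNAi construct in discs that overexpress Yki, the growth-promoting co-activator of the Hippo pathway. They share no library with the 4 described here and were used as a separate measurement of the RNAi construct, in discs of a different state. The study describes discs with Yki and Nelf-A depletion as massively overgrown and neoplastic, with disturbed epithelial polarity. Discs with Yki alone were only moderately overgrown and kept their polarity. Because the driver is confined to dorsal cells, every depleted disc also holds undepleted ventral cells, and in pooled discs fewer cells of a type and less RNA per cell cannot be told apart.

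NELF, the negative elongation factor, holds RNA polymerase II in a paused state shortly after initiation together with DSIF, the complex of Spt4 and Spt5. The kinase P-TEFb, made of Cdk9 and Cyclin T, releases the paused polymerase, and the 7SK snRNP with Hexim, Larp7 and Bin3 keeps P-TEFb inactive. Pausing is common at genes that respond to developmental signals and to stress, of which the heat shock genes are the classical case in flies.

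The reads on genes numbered 6990931 and 8153879 in the ap > NelfAi libraries and 8384594 and 9746830 in the ap > GFP libraries. The values below are the deposited ones, the reads on a gene divided by a factor of its library, so that 1 read was worth 0.0839 and 0.0612 in ap > NelfAi and 0.0639 and 0.0540 in ap > GFP. Per the study's methods each genotype was collected as biological replicates, of which 2 libraries of each of these genotypes were analysed here. The 2 depleted libraries differed from each other far more than the controls did, with Spearman's rho across genes of 0.859 between the ap > NelfAi libraries and 0.985 between the ap > GFP libraries. Their differences from the control mean ran in opposite directions with transcript length (rho = -0.653 across genes in replicate 1 and 0.544 in the library labelled replicate 2). Replicate 1 was below both controls and the library labelled replicate 2 above both for 1908 genes, with a median transcript of 4057 bases, and the reverse held for 1747 genes, with a median transcript of 1211.5 bases. Genes on one side in both libraries, the genes reported here, were near the middle of the length range (median 1782 bases for the higher and 2011 bases for the lower genes, against 1976 bases for all genes).

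**Figure D1:**
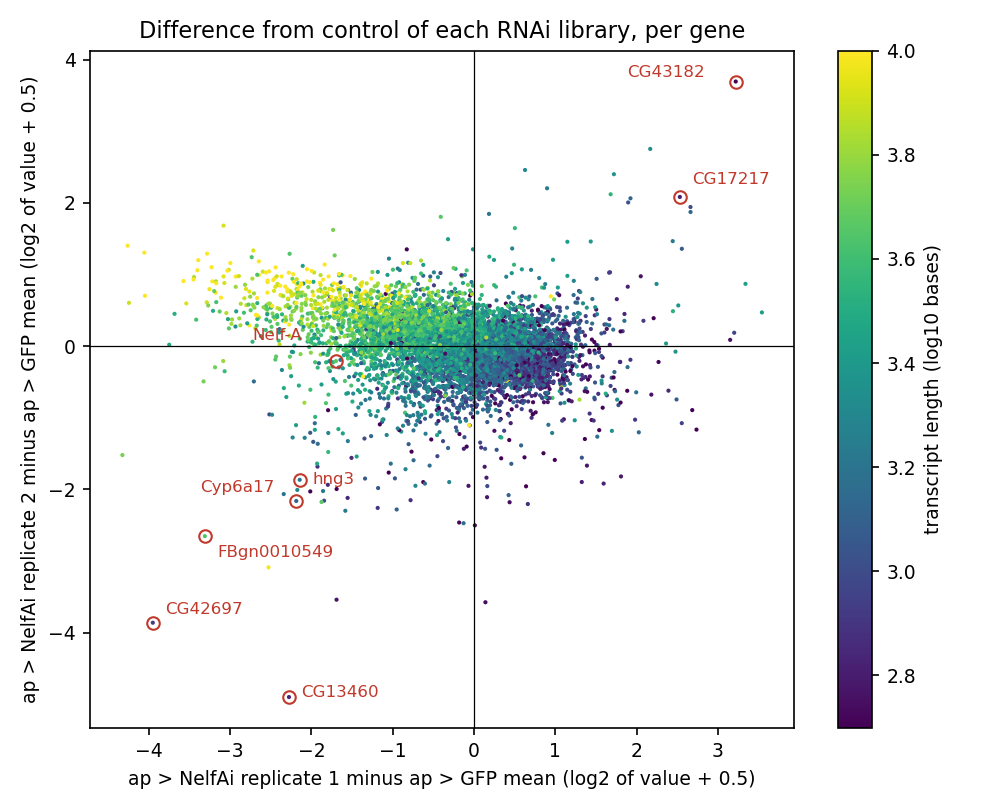
Each point is 1 gene. The horizontal axis is the difference of ap > NelfAi replicate 1 from the ap > GFP mean and the vertical axis that of the library labelled replicate 2, both on the log2(value + 0.5) scale, and the colour is transcript length on a log10 scale. Long transcripts (yellow) lie at the upper left and short ones (violet) at the right, while CG42697 at the lower left and CG43182 at the upper right, ringed with others named in the text, differ from the controls in the same direction in both libraries.

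Nelf-A, the targeted subunit of NELF (FBgn0038872, chr3R:21223704-21229512 on dm6, plus strand), was at 11.4 and 32.9 in ap > NelfAi discs, against 40.4 and 36.0 in ap > GFP discs. These values rest on 136 and 538 reads in ap > NelfAi and 632 and 668 reads in ap > GFP. Nelf-A has a transcript of 4648 bases. Once each library's trend with transcript length was removed, it was at 19.6 and 24.9 in ap > NelfAi and 36.7 and 34.9 in ap > GFP. On the deposited scale replicate 1 held 29.8% of the control mean and the library labelled ap > NelfAi replicate 2 held 86.2%. On that scale the level of the target in the second library goes against its label. The difference did not pass the test (log2 fold change -0.95, SE 0.40, limma adjusted p = 0.968), and it was -1.70 with an adjusted p of 0.0108 in the limma fit without the library labelled replicate 2. That fit holds 1 ap > NelfAi library and takes its spread from the other genotypes, so its p says nothing of the spread among depleted libraries. In the discs that also overexpressed Yki, Nelf-A was at 17.1, 15.8 and 16.9 in ap > Yki+NelfAi and 28.1, 31.9 and 39.4 in ap > Yki, with every depleted library below every other. That difference was not called either (log2 fold change -0.97, SE 0.33, limma adjusted p = 0.0694). An RNAi-depleted transcript in a part of the disc cannot be told apart from a weaker depletion of the whole disc, and exons of Nelf-A overlap those of 1 noncoding gene on the opposite strand.

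None of the partners of Nelf-A in pausing was called. Of the 4 NELF subunits only Nelf-A was on one side in both libraries on the deposited scale, since NELF-B, Nelf-E and TH1, the NELF-D homologue, overlapped with the controls. TH1 had 35.9 and 32.5 in ap > NelfAi and 32.8 and 32.8 in ap > GFP, and was above both controls by a small margin with RLE or TMM scaling or with the length trend removed. Among the 8 genes of P-TEFb, the 7SK complex and DSIF only Spt5 was on one side, at 51.0 and 51.1 in ap > NelfAi and 55.5 and 56.7 in ap > GFP (log2 fold change -0.13, SE 0.19, limma adjusted p = 0.968, and 0.02 once each library's trend with transcript length was removed, when it overlapped). The kinase gene Cdk9 had 15.7 and 9.003 in ap > NelfAi and 10.3 and 9.50 in ap > GFP. CycT, its cyclin with a long transcript, had 11.7 and 110 in ap > NelfAi and 73.0 and 44.7 in ap > GFP, so the depleted libraries enclosed the controls. The siRNA genes AGO2, Dcr-2 and r2d2 also overlapped, while tio, a gene next to an insertion site of the KK collection, was at 2.85 and 12.6 in ap > NelfAi and 17.3 and 14.0 in ap > GFP (limma adjusted p = 0.968). With Yki, tio fell, to 3.27, 2.33 and 3.94 in ap > Yki+NelfAi, against 11.1, 11.3 and 18.0 in ap > Yki (log2 fold change -1.91, SE 0.44, limma adjusted p = 0.0171).

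Both ap > NelfAi libraries were above both controls for 785 genes (9.99% of the genes tested) and below both for 1002 genes (12.8%), so 22.7% of genes did not overlap. Which side held more genes changed with the scaling, with 911 above and 892 below under RLE scaling, 992 and 839 under TMM scaling, and 1228 and 1380 of 7747 genes with the length trend removed. The margin was usually small. Every pair of libraries differed by at least 1.5-fold for 30 higher genes (0.382%) and 88 lower genes (1.12%), and by at least 2-fold for 9 higher (0.115%) and 28 lower genes (0.356%). Alone, replicate 1 was 1.5-fold past both controls for 913 higher and 1747 lower genes, and the library labelled replicate 2 for 293 and 284. With a limma model of all 10 libraries, an adjusted p under 0.05 and at least 1.5-fold, 2 genes were called higher (0.0255%) and 4 lower (0.0509%). An unadjusted p under 0.05 was reached by 301 genes (3.83%). On the reads recovered from the values, edgeR called 0 higher genes and 1 lower gene (0.0127%), and DESeq2 called 8 (0.102%) and 12 (0.153%). Without the library labelled replicate 2, limma called 206 higher and 635 lower genes, with 1 ap > NelfAi library left and the spread taken from the other genotypes, and without any one of the other 9 libraries 0 or 1 higher and 1 or 2 lower genes.

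CG42697 was the one gene whose call held in all 10 fits that left out a library, and it was nearly absent from the depleted discs. It had 0.0839 and 0.122 in ap > NelfAi and 7.10 and 10.3 in ap > GFP, or 3 reads in the 2 depleted libraries against 301 reads in the 2 controls. The level in ap > GFP was 82.9 times that in ap > NelfAi, with a 95% interval of 28.1 to 404 that covers counting error only. Its limma log2 fold change was -3.91 (SE 0.28, adjusted p = 0.000918), and edgeR gave an adjusted p of 0.00127 and DESeq2 of 1.8e-08. It was not called in a limma fit of only the 4 libraries, in which no gene was called. The gene (FBgn0261587, chr2R:18611645-18612730 on dm6, minus strand, protein-coding) shares exon sequence with GEFmeso on the same strand, which had 7.63 and 32.6 in ap > NelfAi and 25.8 and 28.4 in ap > GFP.

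The drop of CG42697 was not seen where Yki was overexpressed. It had 7.21, 10.6 and 8.68 in ap > Yki+NelfAi and 8.52, 12.2 and 9.80 in ap > Yki, groups that overlapped (log2 fold change -0.19, SE 0.22, limma adjusted p = 0.594). The RNAi difference with Yki minus that without it was 3.71 on the log2 scale (limma adjusted p = 0.00452). That difference between differences had an adjusted p under 0.05 for 1.26% of all genes tested. CG42697 was chosen by its difference without Yki, which that contrast subtracts, so its p is not independent of the choice.

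The other 3 genes called lower, all protein-coding, fell in ap > Yki+NelfAi relative to ap > Yki as well. FBgn0010549, listed under the name of a lethal allele, encodes an ABC transporter (chr2R:9390165-9395281, plus strand) and had 2.18 and 3.74 in ap > NelfAi and 29.5 and 23.2 in ap > GFP, a log2 fold change of -2.98 (SE 0.38, limma adjusted p = 0.0416). For hng3, a MADF-domain gene (chr3L:737680-755489, minus strand), the values were 2.52 and 2.57 in ap > NelfAi and 12.8 and 13.7 in ap > GFP (log2 fold change -2.17, SE 0.29, limma adjusted p = 0.0416). The cytochrome P450 gene Cyp6a17 (chr2R:14873953-14875739, plus strand) had 1.68 and 2.14 in ap > NelfAi and 8.44 and 9.88 in ap > GFP (log2 fold change -2.005, SE 0.26, limma adjusted p = 0.0416). In none of the 3 did the depleted libraries come near the controls. With Yki, hng3 had 0.0949, 0.343 and 0.549 in ap > Yki+NelfAi and 9.76, 10.3 and 7.57 in ap > Yki (limma adjusted p = 7.12e-05). Cyp6a17 had 0, 0.0685 and 0.0499 in ap > Yki+NelfAi and 10.5, 11.3 and 15.2 in ap > Yki (limma adjusted p = 9.08e-06). The decrease of FBgn0010549 was smaller there, with 8.40, 11.99 and 13.8 in ap > Yki+NelfAi and 19.3, 18.8 and 36.5 in ap > Yki (log2 fold change -1.05, SE 0.31, limma adjusted p = 0.0439). Each of these 3 calls without Yki was kept in at most 2 of the 10 fits that left out a library, and edgeR did not call them (adjusted p = 0.167 to 0.277).

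The 2 genes called higher have no name beyond their annotation number. CG43182 (chrX:353067-353317, plus strand) had 4.45 and 6.37 in ap > NelfAi and 0.0639 and 0 in ap > GFP, or 157 reads against 1 read. The level in ap > NelfAi was 190 times that in ap > GFP (95% counting interval 33.6 to 7548), with a limma adjusted p of 0.0416. It was at 4.41, 1.92 and 1.15 in ap > Yki+NelfAi and at 0 in each of the 3 ap > Yki libraries. CG17217 (chr2L:12170550-12171232, plus strand) had 4.95 and 3.49 in ap > NelfAi and 0.511 and 0.378 in ap > GFP (log2 fold change 2.31, SE 0.30, limma adjusted p = 0.0416). Its levels with Yki were much the same, 4.03, 5.21 and 4.04 in ap > Yki+NelfAi and 0.162, 0.142 and 0.418 in ap > Yki. Exons of CG17217 overlap those of CG6583 on the opposite strand, and whether the counting used strand is not given in the sources used here, but CG6583 itself overlapped between the genotypes, at 46.6 and 28.7 in ap > NelfAi and 29.1 and 34.2 in ap > GFP.

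**Figure D2:**
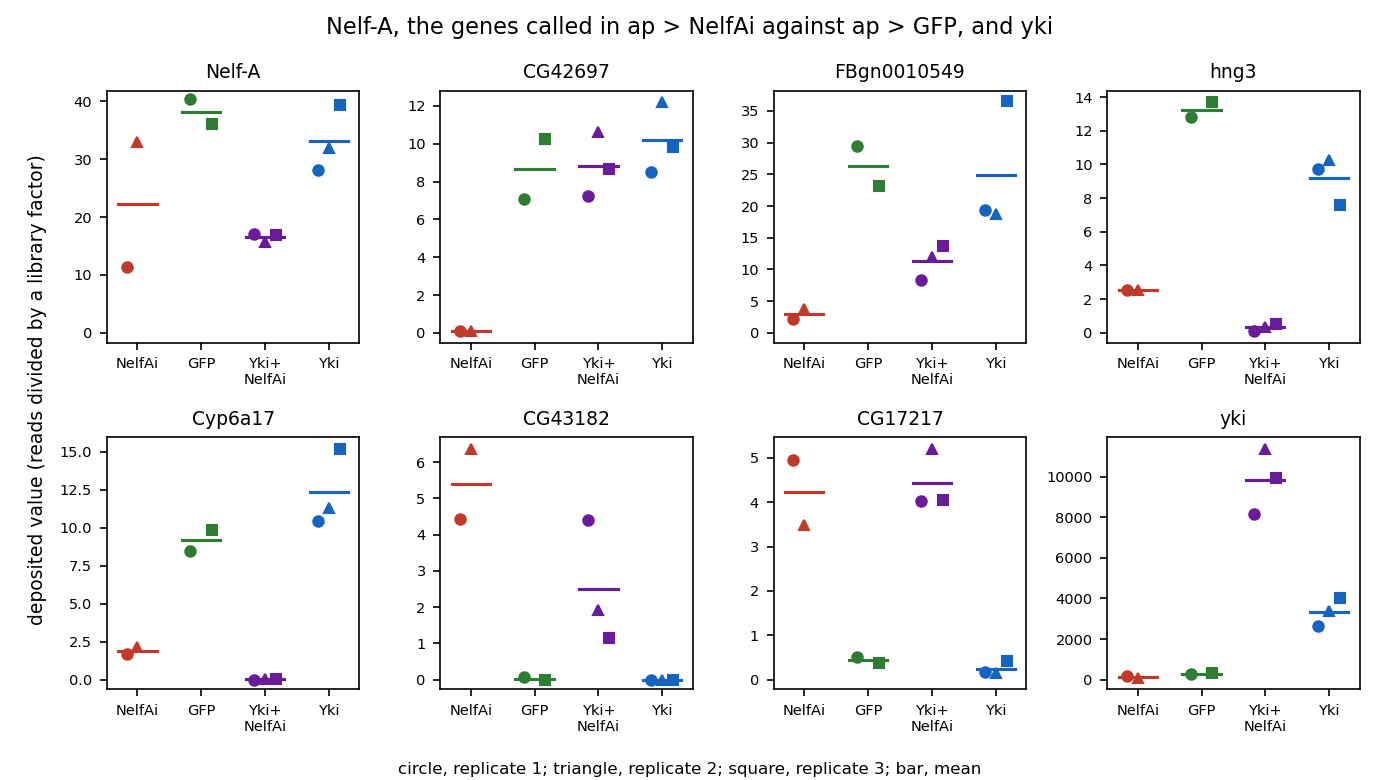
Deposited values of Nelf-A, of the 6 genes called in ap > NelfAi against ap > GFP, and of yki in each of the 10 libraries, with a separate linear vertical axis for each gene. Points are libraries (circle, replicate 1, triangle, replicate 2, square, replicate 3) and bars are means of a genotype. CG42697 is near 0 only in ap > NelfAi, while hng3, Cyp6a17, CG43182 and CG17217 differ in the same direction in both pairs of genotypes, and the 2 ap > NelfAi libraries differ most for Nelf-A.

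Among genes whose mean reached 5 in 1 of the 2 genotypes, those farthest below the controls in both depleted libraries included genes of secreted and matrix proteins and of transporters. Muc68Ca, a mucin, had 2.85 and 1.78 in ap > NelfAi and 25.1 and 14.1 in ap > GFP. Cpr76Bc, a cuticular protein gene, had 3.36 and 2.94 in ap > NelfAi and 13.6 and 13.3 in ap > GFP. Ndg, which encodes the basement membrane protein nidogen, had 2.60 and 2.02 in ap > NelfAi and 12.5 and 9.44 in ap > GFP. The depleted libraries were below both controls for all 3. Once the length trend was removed, Cpr76Bc stayed at 2.98 and 3.25 in ap > NelfAi and 13.9 and 13.6 in ap > GFP, but the depleted libraries spread apart for Ndg (4.80 and 1.40, against 11.3 and 9.12 in ap > GFP) and for Muc68Ca (9.87 and 0.748, against 20.8 and 13.6 in ap > GFP). On the deposited scale limma gave adjusted p of 0.24 for Muc68Ca, 0.153 for Cpr76Bc and 0.159 for Ndg. CG1139, annotated as acs and related to proton-coupled amino acid transporters, had 4.61 and 5.70 in ap > NelfAi and 20.2 and 31.9 in ap > GFP (limma adjusted p = 0.913), and 0.0474, 2.67 and 1.25 in ap > Yki+NelfAi against 41.9, 35.3 and 40.9 in ap > Yki (limma adjusted p = 0.000498). CG13460 differed widely between the depleted libraries, with 10.5 and 1.29 in ap > NelfAi and 58.5 and 47.5 in ap > GFP, and it was near 0 in most libraries with Yki. nonA-l, related to the RNA-binding protein NonA, had 3.44 and 3.18 in ap > NelfAi and 10.8 and 9.66 in ap > GFP (limma adjusted p = 0.153). CG13023 and CG10936 were at least 2-fold below the controls in every pair of libraries as well.

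The highest genes by the same measure, after CG43182, were LM408, Cpr49Ah and CG8888. LM408, annotated as LManII, a lysosomal alpha-mannosidase gene, had 14.0 and 19.2 in ap > NelfAi and 3.90 and 4.16 in ap > GFP (log2 fold change 1.90, SE 0.41, limma adjusted p = 0.33). Cpr49Ah, another cuticular protein gene, had 34.6 and 20.8 in ap > NelfAi and 6.52 and 3.89 in ap > GFP (limma adjusted p = 0.968). CG8888 had 7.97 and 3.797 in ap > NelfAi and 1.09 and 1.03 in ap > GFP (limma adjusted p = 0.153). None of the 3 was higher where Yki was present. LM408 and Cpr49Ah fell in ap > Yki+NelfAi relative to ap > Yki. For each of the 3 the RNAi differences with and without Yki differed (limma adjusted p = 0.031 for LM408, 0.0304 for Cpr49Ah and 0.0326 for CG8888). The 3 were chosen by their difference without Yki, which that contrast subtracts, so its p is not independent of the choice. Such interactions numbered 6 among the named genes, and 1 without ap > Yki replicate 1 or without ap > Yki replicate 2. The number fell as well when either ap > GFP library was left out, in fits that hold 1 ap > GFP library. CG15784 and CG12868 lay above the controls here and rose in ap > Yki+NelfAi relative to ap > Yki, with 53.7 and 54.6 in ap > NelfAi and 29.1 and 13.1 in ap > GFP for CG15784. Cyp18a1, which inactivates ecdysone by hydroxylation, had 6.04 and 5.14 in ap > NelfAi and 3.13 and 2.32 in ap > GFP (limma adjusted p = 0.338). Fic, an enzyme that attaches AMP to the chaperone BiP, and Reck, a matrix metalloprotease inhibitor, completed this group together with CG3520, Hml and Lsp1beta.

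The genes 1.5-fold past both controls were weakly expressed. Of the 30 higher genes 23 had a mean over the 4 libraries under 5, and of the 88 lower genes 48 did, against 23.6% of all genes tested. Of the lower genes 8 were not protein-coding (80 of 88 were), and 28 of the 88 lay on 3R (31.8%, against 24.4% of all genes tested), 22 on 2R and 19 on 3L. Of the higher genes 9 lay on 2L, which holds 16.9% of all genes tested. All 30 and all 88 stayed on their side of the controls after RLE and TMM scaling, and 29 and 88 once the length trend was removed.

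In the libraries with Yki most of the lower genes were lower again. These libraries took part in choosing the genes only through the filter, a value of 1 in 2 or more of all 10 libraries. CG34109, one of the 30 higher genes, passed that filter only through ap > Yki+NelfAi. Its call with Yki is not independent of the filter. Of the 88 lower genes 54 (61.4%) were called lower in ap > Yki+NelfAi relative to ap > Yki and 0 were called higher, where 10.2% of all genes tested were called lower and 7.2% higher. That model takes its spread in part from the ap > NelfAi and ap > GFP libraries, by which the genes were chosen. A limma fit of only the 6 libraries with Yki called 56 lower and 1 higher, against 12.4% and 9.90% of all genes. With edgeR 55 were called lower and 1 higher, against 10.4% and 6.24% of all genes, and with DESeq2 58 and 4, against 13.5% and 8.73%. All 3 ap > Yki+NelfAi libraries were below all 3 ap > Yki libraries for 66 of the 88, against 21.6% of all genes. Their median log2 fold change was -1.60, beside 0.02 for all genes. Of the 30 higher genes 14 (46.7%) were called higher and 4 lower. These 4 were Cpr49Ah, LM408, CG13516 and the P450 gene Cyp6a20, the last pair named after their values were seen. The limma fit of the 6 libraries called 14 of the 30 higher and 4 lower too. With 1 library left out, limma called 41 to 59 of the 88 lower and 8 to 14 of the 30 higher. The lowest counts of higher genes were 9 without ap > Yki replicate 1, when 2.84% of all genes were called higher, and 8 without ap > Yki+NelfAi replicate 2, when 2.9% were. Among the 6149 genes whose mean reached 5 in either genotype, 8.86% were called lower and 6.44% higher. Of the lower genes in that set 33 of 49 were called lower and 0 higher. Of its 12 higher genes 5 were called higher and 2 lower. Of genes 1.5-fold below both controls in 1 depleted library, whatever the other did, 249 of 1747 (14.3%) were called lower again for replicate 1 and 111 of 284 (39.1%) for the library labelled replicate 2. Both pairs carry the same RNAi construct in the depleted genotype, so the loss of Nelf-A, any other transcript the construct may hit and the genetic background that comes with it cannot be told apart. The second pair differed in yki as well, at 8143, 11377 and 9925 in ap > Yki+NelfAi and 2637, 3396 and 4007 in ap > Yki (log2 fold change 1.56, SE 0.31, limma adjusted p = 0.00905). The pair also differed in growth, since the study describes ap > Yki+NelfAi discs as tumorous and ap > Yki discs as nontumorous. The part of the yki level and of the tumorous state in the calls of the second pair was not tested.

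**Figure D3:**
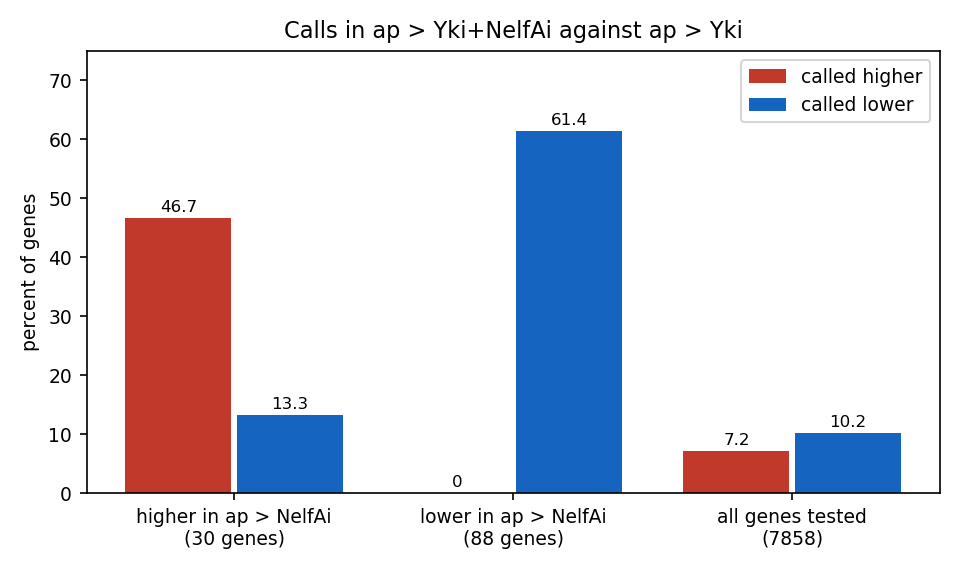
Percent of genes called higher (red) and lower (blue) by limma in ap > Yki+NelfAi against ap > Yki, for the 30 genes at least 1.5-fold above both controls in both ap > NelfAi libraries, the 88 genes at least 1.5-fold below them, and all 7858 genes tested. Of the 88 lower genes 61.4% were called lower, against 10.2% of all genes.

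Of the 9 genes at least 2-fold above both controls in every pair, some were near 0 without the construct and had reads in every library with it. Hsc70-2, a gene of the Hsp70 family, had 2.94 and 4.65 in ap > NelfAi and 0.384 and 0.162 in ap > GFP, and 6.17, 4.87 and 5.04 in ap > Yki+NelfAi against 0.863, 0.0475 and 0.372 in ap > Yki. CG31157, whose annotated start on 3R (13047731) lies close to that of Hsc70-2 (13044759), had 1.85 and 2.08 in ap > NelfAi and 0.128 and 0.108 in ap > GFP. Both neighbours were called higher with Yki (limma adjusted p = 0.000932 for Hsc70-2 and 0.000906 for CG31157). CG12592 had 1.34 and 2.45 in ap > NelfAi and 0.0639 and 0.0540 in ap > GFP, and 5.03, 4.39 and 3.74 in ap > Yki+NelfAi against 0.0539, 0 and 0.139 in ap > Yki. Below the 2-fold limit, CG34109 was barely detected in ap > NelfAi, at 0.252 and 0.551 against 0 in both ap > GFP libraries. It stood at 38.5, 24.4 and 17.2 in ap > Yki+NelfAi, against 0, 0 and 0.0464 in ap > Yki (limma adjusted p = 1.52e-05). These 4 genes were singled out after their values had been seen.

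Among the 28 genes at least 2-fold below both controls, Zip89B and others had the following values and roles. Zip89B, of the ZIP family of zinc transporters, had 3.27 and 5.14 in ap > NelfAi and 12.5 and 12.7 in ap > GFP, and fell with Yki too (log2 fold change -3.01, limma adjusted p = 0.000124). grass, a serine protease gene of the Toll pathway, had 7.72 and 7.78 in ap > NelfAi and 21.0 and 17.6 in ap > GFP (limma adjusted p = 0.153). The depleted libraries were nearly equal to each other for grass, as they were for nonA-l on the deposited scale. tipE, which encodes an auxiliary subunit of a sodium channel, had 0 and 0.122 in ap > NelfAi and 1.47 and 1.03 in ap > GFP. Nnf1b, a kinetochore subunit gene, had 0.336 and 0.490 in ap > NelfAi and 2.24 and 3.18 in ap > GFP. Both tipE and Nnf1b were called lower with Yki (limma adjusted p = 0.00151 and 0.00541). Fadd, the adaptor of the IMD immune pathway, had 1.34 and 0.796 in ap > NelfAi and 3.26 and 5.29 in ap > GFP and was not called in either pair of genotypes. These genes too were chosen after their values had been seen.

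Of the 26 gene lists described, the list of Notch pathway genes and targets had the largest share below the controls on the deposited scale, though with the length trend removed the insulin, TOR and growth list had a larger one (11 of 19). Both depleted libraries were below both controls for 12 of its 26 genes and above for 1, where 12.8% and 9.99% of all genes were, and its median log2 fold change was -0.46 beside -0.02 for all genes. None of the 26 was called, and 4 were at least 1.5-fold below the controls in every pair. An unadjusted p under 0.05 was reached by 3 genes of the Enhancer of split complex. The counts below and above were 12 and 1 with RLE scaling, 11 and 2 with TMM scaling, and 12 and 2 of 25 genes once the length trend was removed, when 17.8% of all genes were below and 15.9% above. The 12 were mainly targets, and genes of the signal itself overlapped on the deposited scale. The receptor N had 17.9 and 107 in ap > NelfAi and 64.0 and 59.3 in ap > GFP, and its ligand gene Ser had 28.5 and 69.0 in ap > NelfAi and 50.5 and 50.7 in ap > GFP. The ligand gene Dl and fng, which encodes the glycosyltransferase that modifies Notch, overlapped with the controls too.

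Most of these targets lie in the Enhancer of split complex (chr3R:25997621-26041008 on dm6), whose genes are switched on by Notch and encode bHLH repressors and small Bearded family proteins. Of its 10 genes tested 8 were below both controls in both depleted libraries, also with RLE and TMM scaling, and 7 once the length trend was removed. E(spl)m6-BFM had 2.52 and 4.78 in ap > NelfAi and 9.97 and 13.7 in ap > GFP (log2 fold change -1.61, SE 0.59). E(spl)mdelta-HLH had 11.2 and 13.5 in ap > NelfAi and 22.2 and 25.6 in ap > GFP (log2 fold change -0.93, SE 0.26). E(spl)malpha-BFM had 16.4 and 25.1 in ap > NelfAi and 38.04 and 38.3 in ap > GFP. These 3 and E(spl)mgamma-HLH, at 1.09 and 1.35 in ap > NelfAi and 2.94 and 2.698 in ap > GFP, were the members at least 1.5-fold below the controls in every pair. E(spl)m2-BFM, E(spl)m3-HLH, E(spl)m7-HLH and E(spl)mbeta-HLH were below by smaller margins, with 170 and 227 in ap > NelfAi and 240 and 269 in ap > GFP for E(spl)mbeta-HLH, the member that overlapped once the length trend was removed. E(spl)m8-HLH overlapped, at 10.7 and 9.31 in ap > NelfAi and 10.4 and 9.01 in ap > GFP, and E(spl)m4-BFM was above the controls, at 4.19 and 4.04 in ap > NelfAi and 2.94 and 2.27 in ap > GFP, but overlapped with the length trend removed. Summed over the 10 genes, the values were 309 and 369 in ap > NelfAi and 448 and 496 in ap > GFP. E(spl)mbeta-HLH alone made up the largest part of each of these sums. None of the 10 passed the test without Yki (lowest limma adjusted p = 0.84, for E(spl)mdelta-HLH).

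With Yki, 8 of the 10 genes were called lower in ap > Yki+NelfAi relative to ap > Yki, where 10.2% of all genes were, with sums of 63.8, 106 and 76.0 in ap > Yki+NelfAi and 240, 208 and 232 in ap > Yki. E(spl)mdelta-HLH had 0.949, 1.58 and 1.05 in ap > Yki+NelfAi and 7.12, 7.08 and 10.1 in ap > Yki (log2 fold change -2.34, SE 0.22, limma adjusted p = 0.000254). E(spl)m4-BFM and E(spl)m8-HLH were the exceptions in both pairs of genotypes. The RNAi difference with Yki minus that without it passed the test for no gene of the complex (lowest limma adjusted p = 0.0703, for E(spl)m2-BFM).

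Outside the complex, the genes of the Notch list below the controls were caps, ap, nvy and dpn, of which nvy overlapped with the length trend removed and dpn with TMM scaling. dpn, a bHLH repressor gene that responds to Notch in the wing margin, had 4.11 and 1.90 in ap > NelfAi and 4.67 and 4.21 in ap > GFP. The selector gene ap, whose enhancer drives the transgenes, had 79.4 and 117 in ap > NelfAi and 127 and 132 in ap > GFP. vg, the wing selector with a Notch-responsive boundary enhancer, had 39.2 and 64.2 in ap > NelfAi and 74.0 and 75.4 in ap > GFP (log2 fold change -0.57, SE 0.23). It was taken from the 8 wing disc markers, of which vg and ap were below both controls and 0 above. Of the others wg overlapped, at 36.9 and 39.6 in ap > NelfAi and 38.7 and 34.4 in ap > GFP. The markers nub, sd, rn, salm and bi lay below both controls in replicate 1 and above both in the library labelled replicate 2. Markers of the myoblasts that underlie the notum, where Notch is also active, were below in part. Of the 9 listed 3 (twi, Him and stumps) were below both controls and none was above, where 12.8% and 9.99% of all genes were. With the length trend removed stumps overlapped. Such a share was not particular to myoblasts. On the deposited scale 3 of 8 notum markers (pnr, tup and odd) and 3 of 8 trachea markers (serp, knk and dys) were below, with 0 above. twi had 15.0 and 14.6 in ap > NelfAi and 21.0 and 19.2 in ap > GFP, while the sum over the myoblast list overlapped, at 272 and 331 in ap > NelfAi and 326 and 332 in ap > GFP. The part of these cells in the Enhancer of split result was not tested.

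**Figure D4:**
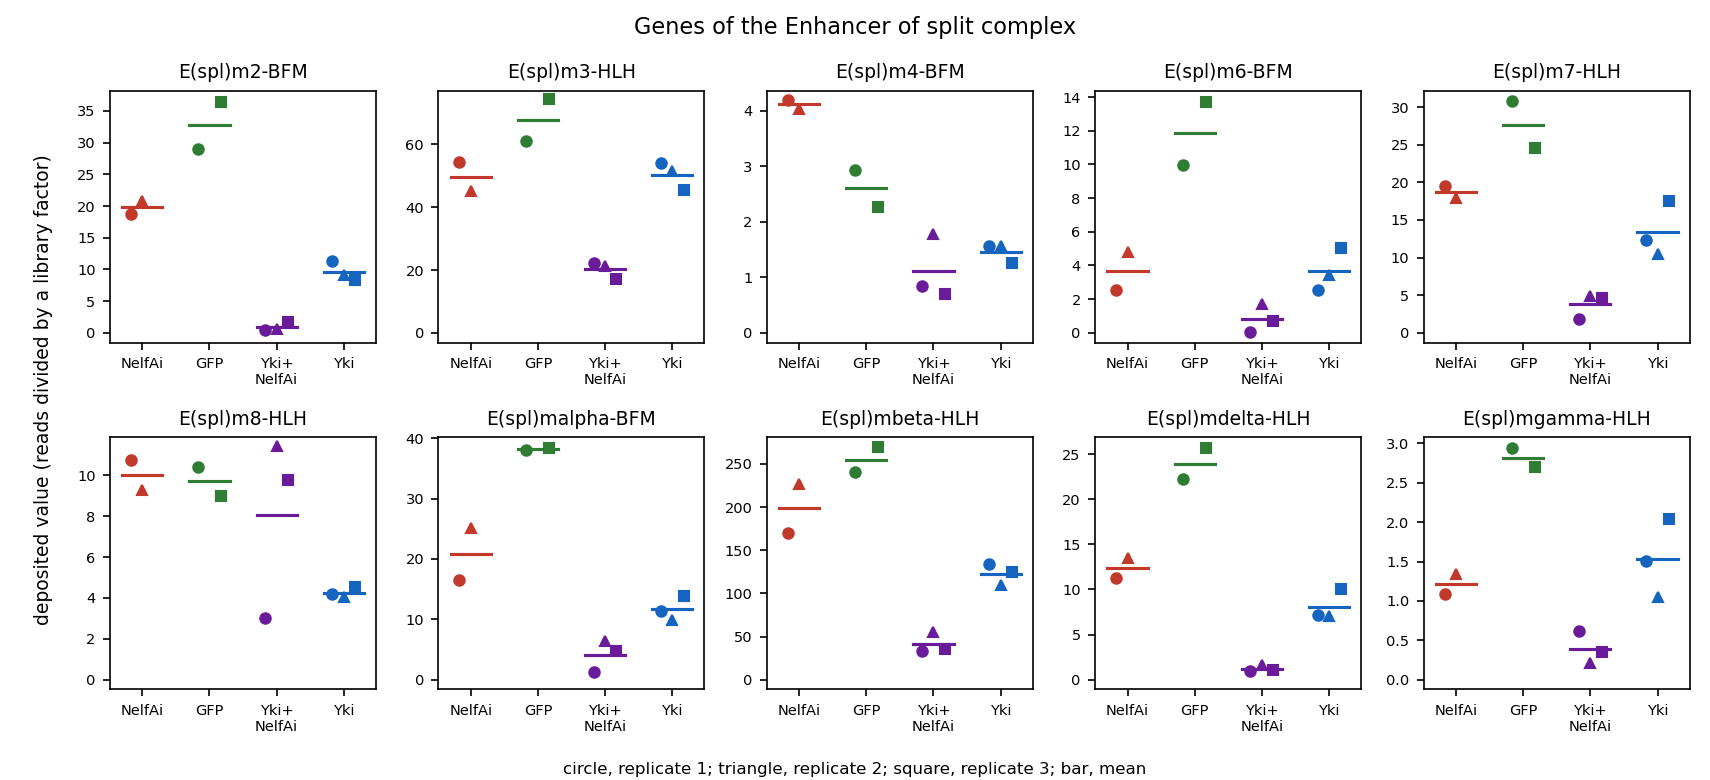
Deposited values of the 10 genes of the Enhancer of split complex in each of the 10 libraries, with a separate linear vertical axis for each gene. Points are libraries (circle, replicate 1, triangle, replicate 2, square, replicate 3) and bars are means of a genotype. For 8 of the 10 genes both ap > NelfAi libraries lie below both ap > GFP libraries, with E(spl)m4-BFM above and E(spl)m8-HLH overlapping, and with the length trend removed E(spl)mbeta-HLH and E(spl)m4-BFM overlap too.

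Detoxification genes lay on both sides of the controls. Of 53 members tested 16 were below and 11 above, beside 12.8% and 9.99% of all genes (23 and 11 with the length trend removed, beside 17.8% and 15.9%), Cyp6a17 alone was called, and the median log2 fold change was -0.12 beside -0.02. Next to Cyp6a17 on 2R, Cyp6a23 had 0.839 and 1.84 in ap > NelfAi and 5.11 and 5.23 in ap > GFP, and Cyp6a19 had 0.0839 and 0.184 in ap > NelfAi and 1.09 and 1.35 in ap > GFP. Cyp6a20, a little further along the same cluster, ran the other way, with 1.17 and 1.65 in ap > NelfAi and 0.575 and 0.486 in ap > GFP. In the glutathione S-transferase cluster on 3R, GstD3 had 54.1 and 20.6 in ap > NelfAi and 89.5 and 97.3 in ap > GFP (log2 fold change -1.47, SE 0.39, limma adjusted p = 0.737). GstD4 and GstD5 were below the controls too, while GstD1 overlapped, at 2019.8 and 1209 in ap > NelfAi and 1391 and 1421 in ap > GFP. Such clusters hold closely related copies whose reads the counting could have split between neighbours, so the single values are uncertain. With Yki, 22 of the 53 were called lower in ap > Yki+NelfAi relative to ap > Yki and 1 higher, with 10.2% and 7.2% of all genes beside them.

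Of 21 insulin, TOR and growth genes 5 were below the controls and 1 above, beside 12.8% and 9.99% of all genes. With the length trend removed 11 of 19 were below and 2 above, beside 17.8% and 15.9% of all genes. The 3 amino acid transporter genes of the list, mnd, slif and path, were below on the deposited scale, with RLE and TMM scaling and with the length trend removed. As a group these 3 were singled out from the list after its values had been seen. mnd (minidiscs) had 16.3 and 29.4 in ap > NelfAi and 43.1 and 42.7 in ap > GFP. slif (slimfast) had 1.34 and 1.10 in ap > NelfAi and 2.69 and 2.05 in ap > GFP. path (pathetic) had 80.8 and 128 in ap > NelfAi and 172 and 194 in ap > GFP. All 3 had an unadjusted p under 0.05 and a limma adjusted p of 0.968, and limma called none of them between ap > Yki+NelfAi and ap > Yki. Ilp8, an insulin-like peptide secreted by damaged or overgrown discs, was the member above the controls, at 13.8 and 8.64 in ap > NelfAi and 6.20 and 2.48 in ap > GFP (log2 fold change 1.35, SE 0.65, limma adjusted p = 0.968).

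yki itself was below both controls in these discs, which carry no Yki transgene. It had 187 and 75.02 in ap > NelfAi and 265 and 307 in ap > GFP (log2 fold change -1.26, SE 0.39, limma adjusted p = 0.968). On the deposited scale, of the 20 Hippo pathway genes and Yki targets only yki was below both controls and only fj, which encodes the Golgi kinase Four-jointed, above, at 60.3 and 62.7 in ap > NelfAi and 51.0 and 51.6 in ap > GFP. In both libraries together, 12.8% of all genes were below and 9.99% above. The remaining 18 overlapped or lay on opposite sides, with 16 of the 20 below both controls in replicate 1 and 14 above both in the library labelled replicate 2. Of all 7858 genes tested, 3486 were below both controls in replicate 1 and 2920 above both in the library labelled replicate 2. The median transcript of the list was 3963 bases, against 1976 bases for all genes.

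In the other signalling lists the shares on one side are to be read against the 12.8% of all genes below and 9.99% above. In the Wingless list 3 of 25 were below and 2 above, among them Wnt6, with 5.12 and 2.76 in ap > NelfAi and 6.71 and 7.72 in ap > GFP (log2 fold change -0.85, SE 0.31), and arm, the beta-catenin gene, with 486 and 471 in ap > NelfAi and 450 and 461 in ap > GFP. With the length trend removed arm overlapped (614 and 423 in ap > NelfAi, 435 and 457 in ap > GFP). In the EGFR list 3 of 22 were below and 2 above. Its lowest member was edl, an antagonist of the pathway's ETS factors, at 10.1 and 11.5 in ap > NelfAi and 17.6 and 16.1 in ap > GFP (log2 fold change -0.62, SE 0.31, limma adjusted p = 0.968). The Dpp list had 2 of 18 below and 0 above, and the Hedgehog list 0 of 15 below and 2 above, or 5 and 1 and 4 and 6 with the length trend removed. Of 11 apoptosis genes 2 were below and 1, p53, above. rpr, whose product antagonises the caspase inhibitor Diap1, was below at 12.5 and 10.5 in ap > NelfAi and 19.2 and 16.8 in ap > GFP. Ecdysone genes had 5 of 26 below and 2 above (9 and 2 with the length trend removed), and cuticle protein genes 9 of 47 below and 4 above, with no call in either list.

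In the JNK, JAK/STAT and stress list 3 of 22 were below and 3 above, shares near those of all genes (12.8% and 9.99%). Beside Ilp8 the members above were os, which encodes the JAK/STAT ligand Outstretched, and Socs36E, a target and inhibitor of that pathway. os had 5.96 and 7.59 in ap > NelfAi and 4.28 and 4.91 in ap > GFP. egr, the TNF homologue Eiger, was below, at 2.94 and 4.23 in ap > NelfAi and 6.01 and 5.13 in ap > GFP, as were rpr and the Jun gene Jra, which overlapped with the length trend removed. Of 30 polarity, adhesion and basement membrane genes 2 were below, Ndg and par-6, and 2 above, arm and Pxn, or 10 below and 4 above with the length trend removed. Of 34 cell cycle and replication genes 3 were above and 3 below, all by small margins. Cdk4 had 21.1 and 20.6 in ap > NelfAi and 17.2 and 15.8 in ap > GFP, and polo, a mitotic kinase gene, had 245 and 234 in ap > NelfAi and 260 and 252 in ap > GFP, but overlapped with TMM scaling or with the length trend removed. Of 12 elongation factor genes 2 were above, and Ssrp, a subunit of the histone chaperone FACT, had 96.9 and 89.5 in ap > NelfAi and 73.2 and 74.6 in ap > GFP (log2 fold change 0.33, SE 0.19, limma adjusted p = 0.968). None of the 26 lists other than that of detoxification genes held a called gene.

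Heat shock genes had 3 of 15 below and 0 above, where 12.8% and 9.99% of all genes were. Hsp67Bc, a small chaperone gene, had 10.2 and 8.15 in ap > NelfAi and 93.4 and 15.3 in ap > GFP, and Hsp26 had 602 and 627 in ap > NelfAi and 3113 and 756 in ap > GFP. The 2 controls differed several-fold from each other for both genes, and the fold changes carried large errors (-2.001, SE 1.43, for Hsp67Bc, limma adjusted p = 0.968).

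The lists of the translation and protein turnover machinery lay mostly on opposite sides of the controls in the 2 depleted libraries on the deposited scale. Of 87 cytoplasmic ribosomal protein genes 78 were above both controls in replicate 1 and 69 below both in the library labelled replicate 2, and only RpL4 was above in both, at 3933 and 3519 in ap > NelfAi and 3437 and 2862 in ap > GFP, and it overlapped with the length trend removed. Of 32 proteasome subunit genes 26 were above in replicate 1 and 31 below in the library labelled replicate 2. Mitochondrial ribosomal protein genes had 69 of 72 above in replicate 1 and 52 below in the library labelled replicate 2, with 4 above and 1 below in both. Of all 7858 genes tested, 3416 were above both controls in replicate 1 and 3109 below both in the library labelled replicate 2. In both libraries together, 9.99% were above and 12.8% below. With the length trend removed the numbers below and above in both libraries were 6 and 6 of 86 cytoplasmic ribosomal protein genes, 11 and 0 of 32 proteasome genes and 8 and 16 of 72 mitochondrial ribosomal protein genes, beside 17.8% and 15.9% of all genes. The median transcript length of these ribosomal and mitochondrial ribosomal lists was 708.5 and 739.5 bases, against 1976 bases for all genes.

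**Figure D5:**
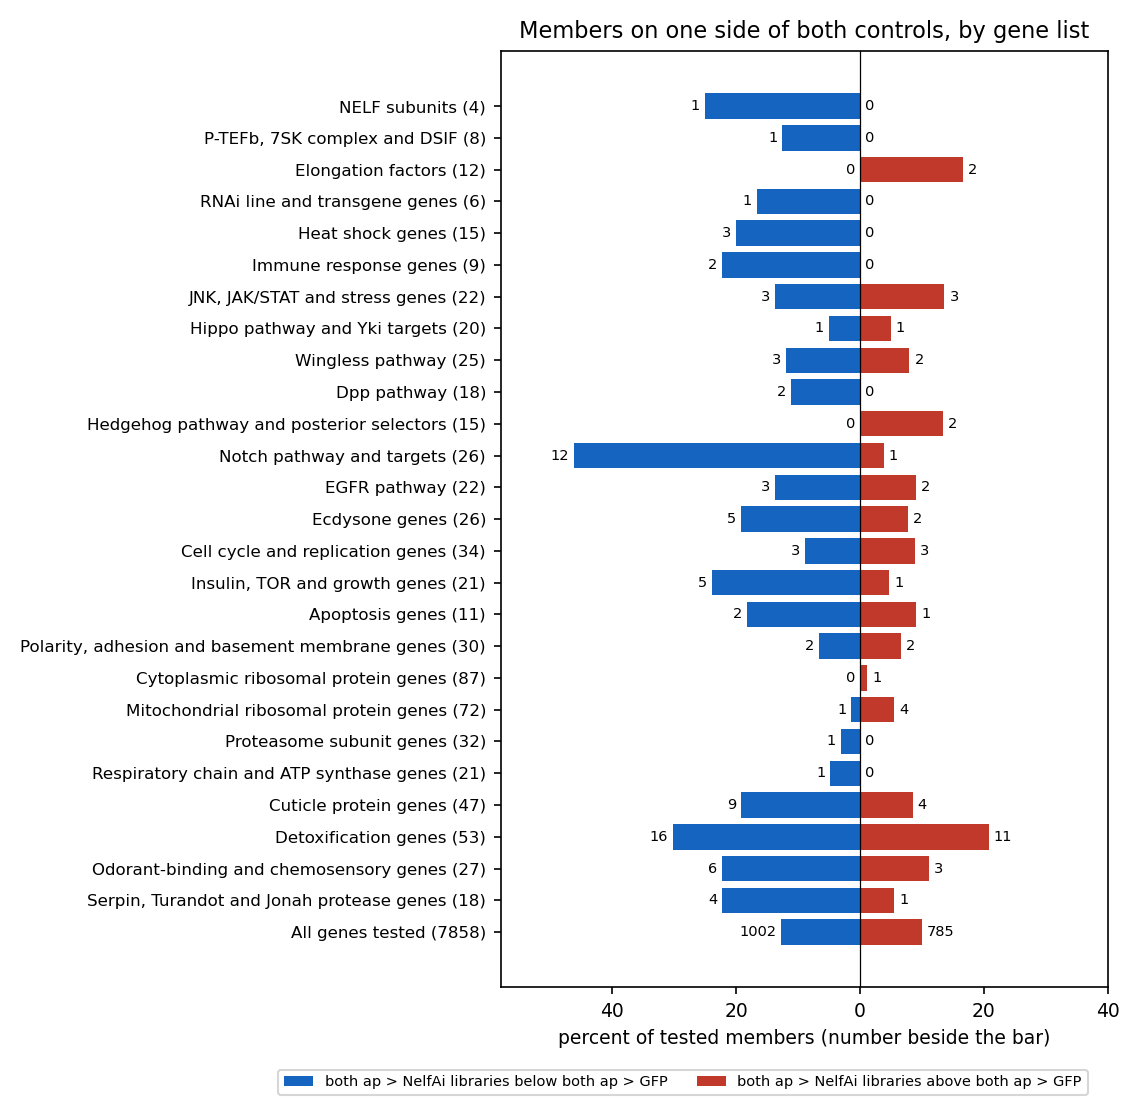
Percent of the tested members of each gene list (number tested in parentheses) for which both ap > NelfAi libraries were below both ap > GFP libraries (blue, to the left) or above both (red, to the right), with the number of genes beside each bar. The Notch list has 12 of 26 genes below and 1 above, the ribosomal protein list 1 of 87 on one side, and all genes tested 1002 below and 785 above, all on the deposited scale.

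Markers of the wing disc were present in all 4 libraries, and the 8 defining markers summed to 262 and 615 in ap > NelfAi and 537 and 509 in ap > GFP. Hemocyte markers were above the controls in part, since Hml, NimC1 and Pxn, 3 of the 8 listed, were above in both depleted libraries and none was below, where 9.99% and 12.8% of all genes were. Hml, a clotting factor of hemocytes, had 7.80 and 6.49 in ap > NelfAi and 3.96 and 3.67 in ap > GFP, but overlapped with the length trend removed (30.1 and 2.99 in ap > NelfAi, 3.11 and 3.52 in ap > GFP), while the sums over the list overlapped, at 82.5 and 42.0 in ap > NelfAi and 37.8 and 47.3 in ap > GFP. Of the 8 larval fat body markers only the storage protein gene Lsp1beta was on one side, at 99.0 and 17.5 in ap > NelfAi and 11.3 and 7.72 in ap > GFP, with sums of 444 and 149 in ap > NelfAi and 151 and 145 in ap > GFP. Muscle markers summed to 1396 and 357 in ap > NelfAi and 701 and 368 in ap > GFP, and salivary gland markers to 180 and 51.6 in ap > NelfAi and 78.1 and 349 in ap > GFP. No marker listed of these tissues was at 0 in both libraries of either genotype. The part of such tissue in the higher values of Hml, Pxn and Lsp1beta was not tested.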

How the data were processed

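RNA-seq of pooled wing discs was deposited as 1 table of 7987 genes in 10 libraries. The labels' genotypes put the columns into groups, and 0 columns stayed without a sample. Per the submitters' processing notes, bcl2fastq, HISAT, StringTie, edgeR and the dm6 build were used. The counting annotation and strand setting are not given in the sources used here. The deposited values are a signal, the reads on a gene divided by a factor of its library by the authors: 100% of values gave whole reads within 0.001 read, and the totals of 2 columns are too large for CPM. The 5 classes of unassigned reads were left out of all fits, and reads on no gene made up 8.88% and 2.695% of the ap > NelfAi libraries and 2.27% and 4.32% of the ap > GFP libraries. Tables of the authors' own comparisons (log2 fold changes, logCPM, p-values and false discovery rates) were not used.

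A gene was tested where its value reached 1 in 2 or more of all 10 libraries (7858 genes). Values were analysed as log2(value + 0.5) with limma 3.58.1 (R 4.3.3, trended prior) in 1 model of the 4 genotypes, with Benjamini-Hochberg adjustment over all genes tested. A fold change on this scale understates the change of weakly expressed genes. A call needed an adjusted p under 0.05 and at least 1.5-fold. A gene was on one side where both ap > NelfAi libraries were above, or both below, both ap > GFP libraries, and a fold in every pair means the smallest of the pairwise differences. The same limma model gave ap > Yki+NelfAi against ap > Yki and the difference between both RNAi differences. Gene positions, lengths and biotypes came from the Ensembl annotation of dm6, matched for 7876 genes. Counting intervals are exact binomial intervals (95%).

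Genes were named by rule: members of the NELF, P-TEFb, 7SK, DSIF and RNAi line lists, called genes, the 12 farthest past the controls each way among genes whose mean reached 5 in either genotype, and the farthest member of each list each way (70 genes in all). Other list members named as examples, and the amino acid transporter group within the growth list, were chosen after their values were seen. The members, 26 gene lists and 12 marker lists were chosen with earlier results of these data known. Alternatives were other pseudocounts and filters, RLE and TMM scaling, removal of the length trend (loess, span 0.3), a replicate block, a fit of 2 genotypes, edgeR 4.0.16 and DESeq2 1.42.0 on the recovered reads, and each library left out. Scaling by list and by gene, the choice of genes by 1 depleted library and the left-out libraries for the interaction and for the second pair were added after seeing the data. Scripts were tested on simulated data.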

Additional observations from a re-analysis of the deposited data

Results flagged for a closer look

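For 14 genes named above or at least 1.5-fold past both controls, the RNAi difference with Yki (ap > Yki+NelfAi minus ap > Yki) differed from that without it (ap > NelfAi minus ap > GFP) in the limma interaction test, at an adjusted p under 0.05. Over all genes tested 1.26% did. The 14 were chosen by their difference without Yki, which this contrast subtracts, so their p-values are not independent of the choice. The share of all genes is for that reason no like background for them. The values here are the difference with Yki minus the difference without it, on the log2(value + 0.5) scale. CG42697 (3.71), CG34109 (4.82) and yki (2.82) had positive values. CG42697 was nearly absent only from ap > NelfAi discs. CG34109 reached 17.2 or more only in ap > Yki+NelfAi. For yki, reads of the transgene and of the endogenous gene cannot be told apart.

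The other 11 genes had negative values. Cpr49Ah (-5.70), CG13516 (-3.68), LM408 (-3.08), Spn47C (-2.63) and CG8888 (-2.61) were above both controls in ap > NelfAi. Spn47C, a serpin gene, had 5.45 and 2.94 in ap > NelfAi and 0.448 and 0.432 in ap > GFP, and 0.854, 0.822 and 0.599 in ap > Yki+NelfAi and 1.13, 1.28 and 0.929 in ap > Yki. CG17919 (-3.36), Cyp6a17 (-2.55), CG14291 (-2.25), grass (-2.24), CG9896 (-1.80) and CG6044 (-1.61) were below both controls in ap > NelfAi and lower by more with Yki. grass, a serine protease gene of the Toll pathway, had 7.72 and 7.78 in ap > NelfAi and 21.0 and 17.6 in ap > GFP, and 1.66, 1.23 and 1.60 in ap > Yki+NelfAi and 22.96, 25.4 and 18.4 in ap > Yki.

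Reads on no annotated gene, which no comparison uses, made up 8.88% of ap > NelfAi replicate 1, above both ap > GFP libraries (2.27% and 4.32%). The library labelled ap > NelfAi replicate 2 held 2.695%.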

How the results depend on the processing

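With 2 libraries a genotype that differ from each other, the calls depended on the processing, and the cause was not tested. Against 2 higher and 4 lower calls, there were 8 and 12 with DESeq2, 0 and 1 with edgeR, with a minimum of 5, and with a replicate block (alone or with the length trend removed), 0 and 0 in a fit of the 2 genotypes, 1 and 2 with a pseudocount of 0.1, and 1 higher with a pseudocount of 1 or the length trend removed. Leaving out 1 library gave 0 to 206 higher and 1 to 635 lower calls, the highest without ap > NelfAi replicate 2. Deviations of same-numbered libraries from their genotype means correlated at -0.266 to 0.138. Because ap > NelfAi and ap > GFP share only number 1, these values cannot tell whether shared numbers mark pairs. For ap > Yki+NelfAi against ap > Yki the 566 higher calls became 895 with the length trend removed and 307 with the replicate block, and leaving out 1 library gave 223 to 907 higher and 496 to 1064 lower calls. Genes on one side numbered 1228 higher with the length trend removed, 30 higher and 88 lower at 1.5-fold, and 1443 to 3416 higher and 1571 to 3486 lower with 1 library left out. Interactions of named genes numbered 6, or 11 with the length trend removed and 1 to 14 with 1 library left out.

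The log2 fold changes that changed sign were those of NELF, P-TEFb, 7SK, DSIF and RNAi line genes, none of them called. With the length trend removed AGO2 was at 0.11, Dcr-2 at 0.19, Hexim at -0.027, Spt5 at 0.019 and tsh at 0.027. With the replicate block as well, these were 0.24, 0.26, -0.00274, 0.064 and 0.080, Larp7 was at -0.040 and r2d2 at -0.00484. The block alone gave 0.0135 for AGO2 and -0.059 for Larp7. CycT was at 0.080 with DESeq2 and 0.082 with edgeR, and Nelf-E at 0.0061 with edgeR. With 1 library left out, the lowest and highest values were -0.13 and 0.64 for Cdk9, -2.23 and 0.94 for CycT, -0.64 and 0.33 for Dcr-2, -0.25 and 0.31 for Hexim, -0.11 and 0.21 for Larp7, -0.052 and 0.36 for NELF-B, -0.41 and 0.27 for Nelf-E, -0.011 and 0.13 for TH1, -1.0003 and 0.32 for bin3, -3.05 and 0.46 for larp, -0.14 and 0.51 for r2d2, -0.082 and 1.05 for spt4 and -0.90 and 0.40 for tsh. All these limits came without 1 of the ap > NelfAi libraries. Over all named genes and alternatives, 1339 values kept direction and side of the threshold, 72 lost the call, 23 gained one and 32 changed sign.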
